A study of Mus musculus with 16 samples.

Results

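The DOCK genes encode a family of large guanine nucleotide exchange factors. The 8 members described here, Dock1, Dock2, Dock5, Dock6, Dock8, Dock9, Dock10 and Dock11, were found by their symbols in the deposited RNA-seq table and make up 8 of its 27928 genes. Spleens of young adult mice gave the 2 sorted subsets studied, the recirculating follicular (FO) B cells, gated as CD21lo CD23hi, and the marginal zone (MZ) B cells at the edge of the white pulp, gated as CD21hi CD23lo. WT mice were BL6 (C57BL/6), and cKO mice were Gtf2i fl/fl with a Cre active in the B cell lineage, which deletes there the floxed alleles of Gtf2i, the gene of the transcription factor TFII-I. The cells were not treated, and the WT mice carried neither the floxed alleles nor Cre. There were 2 libraries in each of the 4 groups, WT FO, WT MZ, cKO FO and cKO MZ, and the sources used here do not say whether each library was a separate mouse, so that p-values measure the spread between these libraries, which may be technical.

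DOCK proteins switch on small GTPases. Their DHR-2 domain exchanges GDP for GTP on Rac or Cdc42, which then drive actin assembly, migration and the immune synapse. Dock1, Dock2 and Dock5 (DOCK-A) act on Rac together with Elmo adaptors, Dock6 and Dock8 belong to DOCK-C, and Dock9, Dock10 and Dock11 (DOCK-D, also called zizimins) act on Cdc42. In lymphocytes, Dock2 is the main Rac activator downstream of chemokine receptors, and Dock8 links Cdc42 to the WASP pathway. Mice without functional Dock2 or Dock8 have few MZ B cells.

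The sequences shown first are the upstream regions of the 3 members on which the results turn. Dock11 and Dock10 are those that passed the adjusted p between FO and MZ B cells in both genotypes, and Dock6 is the one that passed it between cKO and WT over both subsets. Each is the 250 bases before the annotated start, 5′ to 3′ on the strand of the gene, from RefSeq (GRCm38.p6), and capitals mark the GC box GGGCGG read on either strand. A promoter entry was found for 7 of the 8 members, with 10 starts in all. For Dock10, which has more than 1 start, the outermost is shown.
Dock6 (chr9:21852636-21852885, minus strand): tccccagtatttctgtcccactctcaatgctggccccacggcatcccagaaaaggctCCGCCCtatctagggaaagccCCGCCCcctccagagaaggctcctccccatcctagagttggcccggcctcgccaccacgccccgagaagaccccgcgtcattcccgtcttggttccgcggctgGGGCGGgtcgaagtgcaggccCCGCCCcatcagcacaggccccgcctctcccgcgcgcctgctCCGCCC
Dock10 (chr1:80758554-80758803, minus strand): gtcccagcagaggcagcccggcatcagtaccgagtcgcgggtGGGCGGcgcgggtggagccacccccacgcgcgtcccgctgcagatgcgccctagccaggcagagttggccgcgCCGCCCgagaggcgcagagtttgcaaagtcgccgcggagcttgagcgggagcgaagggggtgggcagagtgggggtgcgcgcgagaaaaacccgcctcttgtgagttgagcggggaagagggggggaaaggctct
Dock11 (chrX:35888582-35888831, plus strand): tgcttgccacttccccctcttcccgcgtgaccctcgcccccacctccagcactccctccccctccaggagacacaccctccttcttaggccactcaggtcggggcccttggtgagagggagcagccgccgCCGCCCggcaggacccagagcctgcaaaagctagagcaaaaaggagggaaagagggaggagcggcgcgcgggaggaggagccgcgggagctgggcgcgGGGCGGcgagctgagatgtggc

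All 3 windows were rich in G and C, with 68.8% in Dock6, 70.4% in Dock10 and 69.6% in Dock11. Dock6 held 5 GC boxes, and Dock10 and Dock11 held 2 each. Of the 32851 mouse windows of this length in the RefSeq table, 32.7% held at least 1. The E-box CACGTG, the Ikaros core TGGGAA and the Runx core TGTGGT, searched on both strands, had no match in these 3 windows, while 6.02%, 21.6% and 14.1% of all windows held them. The Ets core GGAAGT had 1 match, in the Dock11 window, and was held by 19.7% of all windows. These matches describe letters only and do not show that a factor was bound.

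Reads on genes ranged from 21546552 to 25083552 per library. The values are normalized counts, each the number of reads divided by the size factor of its library. Gtf2i lay between 1992 and 2864 in the WT libraries and between 1523 and 1889 in the cKO libraries, for reads over the full gene, deleted exons included. Cr2 (CD21) was at least 86953 in MZ and at most 26803 in FO libraries, and Fcer2a (CD23) at least 24802 in FO and at most 6707.6 in MZ libraries. The genotypes also differed in sex-linked transcripts. The WT libraries held 25929.5 to 47002 normalized counts of Xist, the RNA that coats the inactive X, cKO FO replicate 1 held 14748 and the remaining cKO libraries held no more than 89.7. Ddx3y, on the Y chromosome, did not exceed 6.34 in WT and was not under 2682 in cKO libraries. Genotype and sex-linked transcripts cannot be told apart in these groups.

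Dock2, Dock10, Dock8 and Dock11 carried most of the DOCK transcript. Levels were compared between genes as normalized count per kb of annotated exons. The length counted every base in any annotated exon of a gene, so the order and shares of members depend on the annotation. Averaged over the 8 libraries, Dock2 stood at 1359 per kb, above 95.0% of the 14748 tested genes with a known length, Dock10 at 984 (above 92.3%), Dock8 at 882 (above 91.2%) and Dock11 at 586 (above 85.7%). Dock9 was near the middle of the expressed genes at 119 per kb (above 49.0%), Dock6 followed at 53.9 (above 34.1%), and Dock5 lay near the bottom at 3.57 (above 3.25%). Dock1, the founding member of the family with wide roles in engulfment and cell spreading, had between 0 and 7 reads per library and was not tested, because its mean of 3.88 normalized counts was under the minimum of 10.

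The order of these levels was Dock2, Dock10, Dock8, Dock11, Dock9, Dock6, Dock5 and Dock1 in each of the 4 groups, but the distances differed. In WT FO B cells the replicate values of Dock10 (861 and 917 per kb) overlapped those of Dock8 (822 and 914), and those of Dock8 overlapped those of Dock11 (759 and 865), so that these neighbours did not differ beyond their spread. The same pairs overlapped in cKO FO B cells. In MZ B cells no neighbouring members from Dock2 down to Dock5 overlapped. There Dock8 stood at 980 ± 27.3 per kb (SD, n = 2) and Dock11 at 410 ± 46.5 (SD, n = 2) in WT, and at 883 ± 58.9 (SD, n = 2) and 371 ± 1.08 (SD, n = 2) in cKO.

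**Figure D1:**
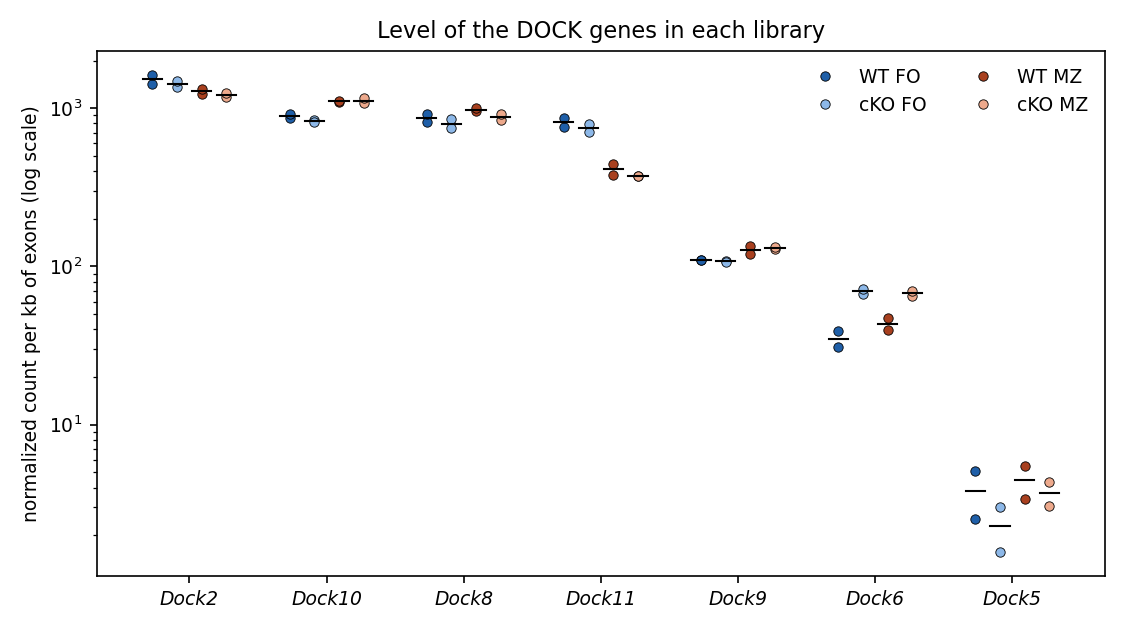
Normalized count per kb of annotated exons (log axis) of the 7 tested DOCK members, ordered by level, with 1 point per library and a black line at the mean of each group of 2 libraries. Dock2, Dock10, Dock8 and Dock11 lie above the other members in every library, Dock11 drops in the MZ libraries, and Dock6 is higher in all 4 cKO libraries than in all 4 WT libraries.

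FO and MZ B cells were compared first, since the study asked which genes mark these subsets with and without TFII-I. Dock11 stood higher in FO B cells by 1.98-fold in WT and 2.01-fold in cKO, Dock10 was lower there with an adjusted p under the threshold but a fold under the minimum, and no other member passed the adjusted p. Of the 7 members tested, 1 (Dock11) was called for FO, that is higher there, and 0 for MZ B cells in each genotype by limma, where a call needed 1.5-fold and an adjusted p no greater than 0.05. Over all tested genes, 4.62% were called for FO and 7.41% for MZ B cells in WT, and 5.54% and 8.18% in cKO. With no minimum fold, 2 of the 7 members (Dock10 and Dock11) passed in WT and the same genes passed in cKO, against 16.9% and 19.6% of all tested genes. The edgeR and DESeq2 tests on the recovered reads also called Dock11 alone in each genotype. An unadjusted limma p under 0.05 was found for 3 members in each, against 4469 (WT) and 4933 (cKO) of the 14761 tested genes. The median difference of the 7 members was -0.20 on the log2 scale in WT and -0.15 in cKO, and that of all tested genes was 0.00 (0.00479 in WT and 0.00466 in cKO).

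Dock11 (ENSMUSG00000031093.14, GRCm38 chromosome X from 35888832 to 36076562, plus strand) encodes a Cdc42 exchange factor found mainly in blood cells. It had 7018 and 7989.6 (WT) or 7341 and 6513 (cKO) normalized counts in FO libraries, and 3485 and 4093 (WT) or 3439.6 and 3425 (cKO) in MZ libraries. Each FO library lay above each MZ library, with a gap between 4093 and 6513, and the genotypes were intermingled within FO but not within MZ B cells. The FO mean was 1.98 times the MZ mean in WT (log2 difference 0.99, SE 0.113, limma adjusted p = 0.00133) and 2.01 times in cKO (log2 difference 1.01, SE 0.113, limma adjusted p = 0.00107). It was called in all 15 alternatives in each genotype, with log2 differences from 0.87 to 1.10 in WT and from 0.84 to 1.10 in cKO. Over both genotypes the mean was 7215 ± 618 (SD, n = 4) in FO and 3611 ± 322 (SD, n = 4) in MZ libraries. Without cKO FO replicate 1, the library in which both Xist and Ddx3y were high, the log2 difference in cKO was 0.92 (limma adjusted p = 0.0130).

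Dock10 (ENSMUSG00000038608.15, chromosome 1 from 80501073 to 80758527, minus strand) is the other abundant DOCK-D member in these cells and is known to be induced by IL-4 in B cells. Its normalized counts were 15726 and 16752 (WT) or 15336 and 14923 (cKO) in FO libraries, and 20048 and 20243 (WT) or 19647 and 21152 (cKO) in MZ libraries. All 4 FO libraries lay under all 4 MZ libraries, the opposite order to Dock11. The difference, FO minus MZ, was -0.31 on the log2 scale in WT (SE 0.0865, limma adjusted p = 0.0462) and -0.43 in cKO (SE 0.0865, limma adjusted p = 0.0123), which is 1.24-fold and 1.35-fold and under the 1.5-fold minimum. Over the alternatives the adjusted p (limma, edgeR or DESeq2) lay between 0.0231 and 0.197 in WT and between 0.000610 and 0.0857 in cKO. In WT it was over 0.05 without any 1 of the 8 libraries (limma adjusted p from 0.0748 to 0.197), with no filter (0.0675) and in a fit of only the 4 libraries compared (0.138). In cKO it was over 0.05 when any of the 4 libraries compared was left out (limma adjusted p from 0.0515 to 0.0857).

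**Figure D2:**
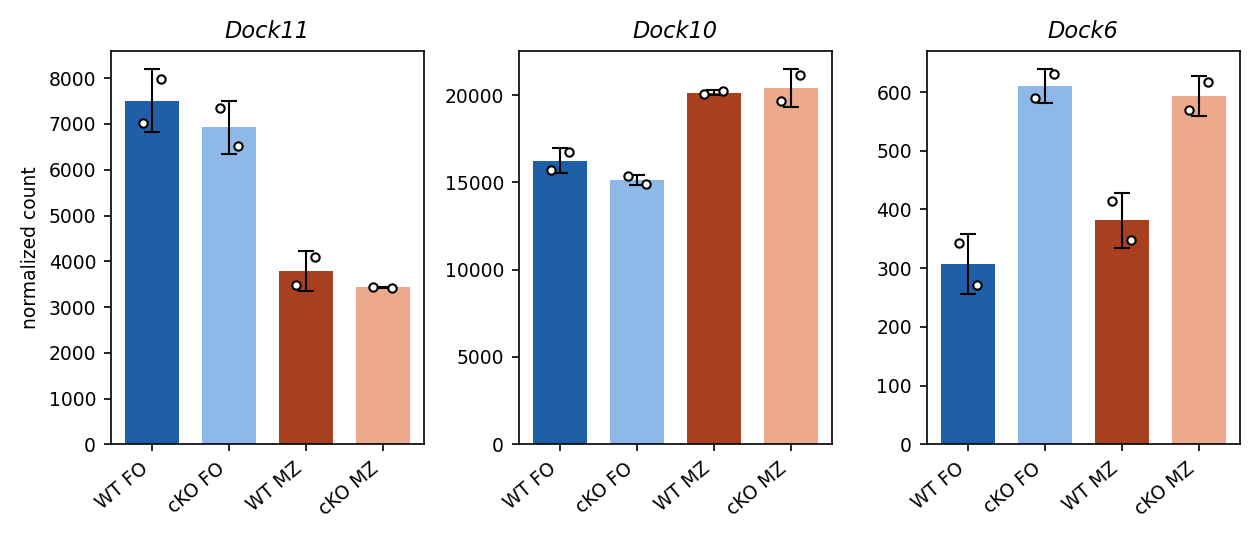
Normalized counts of Dock11, Dock10 and Dock6 in the 4 groups, on axes that start at 0, with bars at the mean, error bars of 1 SD (n = 2) and white points for the libraries. Dock11 is high in both FO groups, Dock10 is high in both MZ groups, and Dock6 is high in both cKO groups, where it lies between 569 and 630.1.

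The ratio of Dock10 to Dock11, per kb, was calculated after these values were seen and is given without a test. It lay between 1.06 and 1.16 in the 4 FO libraries and between 2.50 and 3.12 in the 4 MZ libraries. Per kb, both genes thus stood at nearly equal levels in FO B cells while Dock10 predominated in MZ B cells. The near equality rests on annotated exon lengths of 18.267 kb for Dock10 and 9.24 kb for Dock11. Before division by length, WT FO means were 16239 normalized counts for Dock10 and 7504 for Dock11. Dock11 made up 17.9% to 19.7% of the summed DOCK signal per kb in FO libraries and 9.49% to 11.0% in MZ libraries. Dock10 made up 20.5% to 21.5% in FO and 27.4% to 29.6% in MZ libraries. Summed over Dock9, Dock10 and Dock11, the DOCK-D share ranged from 41.5% to 43.3% in FO and from 41.3% to 43.0% in MZ libraries, so the ranges overlapped. The DOCK-A share (Dock1, Dock2 and Dock5) was 33.9% to 37.7% in FO and 32.0% to 33.0% in MZ libraries, and the DOCK-C share (Dock6 and Dock8) was 20.8% to 22.8% in FO and 24.7% to 26.2% in MZ libraries, and neither pair of ranges overlapped. The sum of all 8 members per kb was 4107 ± 246 (SD, n = 4) in FO and 3868 ± 156 (SD, n = 4) in MZ libraries.

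**Figure D3:**
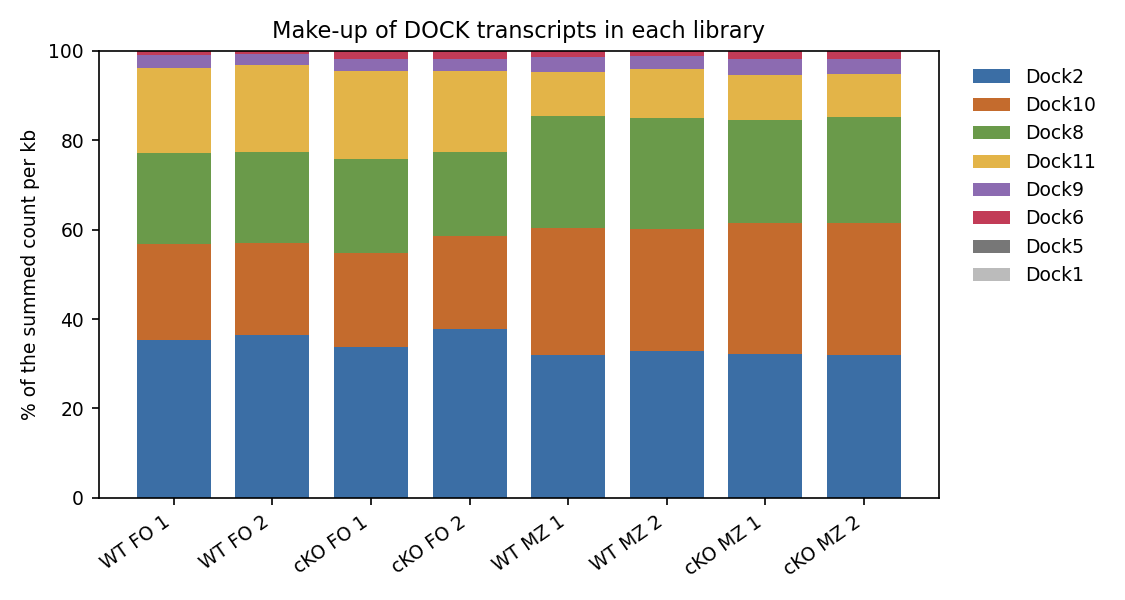
Share of each member in the summed normalized count per kb of the 8 DOCK members, 1 stacked bar per library. The Dock11 band is wider in the FO libraries (17.9% to 19.7%) than in the MZ libraries (9.49% to 11.0%), and the Dock10 band is wider in the MZ libraries.

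Dock2 and Dock8, the members best known in lymphocytes, were not called between the subsets. Dock2 (chromosome 11 from 34226815 to 34783892, minus strand) had 16127 and 18615 (WT) or 15554.5 and 16908 (cKO) normalized counts in FO libraries, and 14087 and 15167 (WT) or 13463.5 and 14250.5 (cKO) in MZ libraries. Every FO library was above every MZ library, by a narrow margin. The share of all tested genes that separate FO from MZ libraries in this way was not counted, for Dock2 or the other members. FO exceeded MZ by 0.25 on the log2 scale in WT (SE 0.104, limma adjusted p = 0.158) and by 0.23 in cKO (SE 0.104, limma adjusted p = 0.172), neither of which was called. An antisense gene, 4930403D09Rik, shares exon bases with Dock2 but had a mean of 0.736 normalized counts, and 3.61% of the 50-base words of Dock2 transcripts also occur in transcripts of other genes, while no other member exceeded 0.0808%.

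Dock8 (chromosome 19 from 24999534 to 25202432, plus strand) had 8278 and 9203 (WT) or 8577 and 7504 (cKO) normalized counts in FO libraries, and 9678 and 10067 (WT) or 8470 and 9308 (cKO) in MZ libraries. The WT groups did not overlap, whereas those of cKO did. Neither log2 difference, FO minus MZ, of -0.18 in WT (SE 0.103, limma adjusted p = 0.296) nor of -0.15 in cKO (SE 0.103, limma adjusted p = 0.363) was called.

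Dock9 (chromosome 14 from 121542046 to 121797837, minus strand), a Cdc42 exchange factor studied in fibroblasts and neurons, ran in the direction of Dock10. Its normalized counts were 1462 and 1454 (WT) or 1426 and 1418 (cKO) in FO libraries, and 1777 and 1578 (WT) or 1705 and 1766 (cKO) in MZ libraries. All FO libraries were lower than all MZ libraries, but the log2 differences of -0.20 in WT (SE 0.0892, limma adjusted p = 0.179) and -0.29 in cKO (SE 0.0892, limma adjusted p = 0.0604) did not pass. Dock5 (chromosome 14 from 67752135 to 67933442, minus strand), a Rac exchange factor studied in osteoclasts and mast cells, ranged only from 19.1 to 67.0 normalized counts over the 8 libraries. Its log2 differences, FO minus MZ, of -0.26 in WT and -0.71 in cKO carried an SE of 0.476 (limma adjusted p = 0.765 and 0.338). The FO minus MZ difference of Dock6 was -0.32 in WT (SE 0.154, limma adjusted p = 0.217) and 0.04 in cKO B cells (SE 0.154, limma adjusted p = 0.884).

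cKO cells were then compared with WT cells in each subset, the question being which genes follow the loss of TFII-I. Dock6 was the member with the largest difference and was higher in cKO, by 1.00 on the log2 scale in FO and 0.64 in MZ B cells, whereas the other abundant members differed by at most 1.11-fold in either subset. Of the 7 members tested, 0 were called in FO and 0 in MZ B cells by limma, where 0.0542% and 0.0339% of all tested genes were called higher in cKO. In the fit of both subsets with subset as a term, 1 (Dock6) was called higher in cKO, against 0.129% of all tested genes. At an unadjusted limma p under 0.05 there was 1 member, Dock6, in each subset, against 382 (FO) and 596 (MZ) of the 14761 tested genes. With edgeR 0 members were called in each. DESeq2 called 1 member, Dock6, in FO and 0 in MZ B cells. The median log2 difference of the 7 members, cKO minus WT, was -0.10 in FO and -0.08 in MZ B cells, beside -0.01 in each subset for all tested genes.

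Dock6 (ENSMUSG00000032198.9, chromosome 9 from 21799860 to 21852635, minus strand) is an exchange factor for Rac and Cdc42 known for mutations in a human disorder of limb and scalp development. It had 343 and 271 (WT) or 590.1 and 630.1 (cKO) normalized counts in FO libraries, and 414 and 349 (WT) or 569 and 618 (cKO) in MZ libraries. The highest WT library (414) was under the lowest cKO library (569). Among all tested genes, every cKO library lay above every WT library in 10.9% of genes in FO, in 15.8% in MZ and in 1% over both subsets. The log2 difference, cKO minus WT, was 1.00 in FO (SE 0.154, unadjusted p = 0.000236, limma adjusted p = 0.183), 0.64 in MZ (SE 0.154, unadjusted p = 0.00352, limma adjusted p = 0.799) and 0.82 in the fit of both subsets (SE 0.117, limma adjusted p = 0.0390), a mean of 602 ± 27.4 (SD, n = 4) in cKO against 344 ± 58.5 (SD, n = 4) in WT libraries. The study named Dock6 from these same libraries, so this is not independent evidence of its direction. It listed Dock6 among genes higher in cKO MZ B cells, by DESeq2 with the fold and adjusted p cutoffs that a call needed here. In MZ B cells here, Dock6 was higher in cKO but was not called by limma, edgeR (adjusted p = 0.699) or DESeq2 (adjusted p = 0.194). The MZ call of the study was therefore not reproduced, and the reason was not tested.

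The call of Dock6 over both subsets was near the threshold. It was made in 6 of 14 alternatives, among them DESeq2 (adjusted p = 7.43e-07) and edgeR (adjusted p = 0.0423). With quantile normalization the limma adjusted p was 0.0670, and it was over 0.05 when any library other than WT MZ replicate 1 was left out, from 0.0543 without WT FO replicate 2 to 0.224 without cKO FO replicate 2. The log2 difference itself stayed between 0.72 and 0.90. Without cKO FO replicate 1 it was 0.80 (limma adjusted p = 0.113), and without cKO MZ replicate 1 it was 0.88 (limma adjusted p = 0.105).

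**Figure D4:**
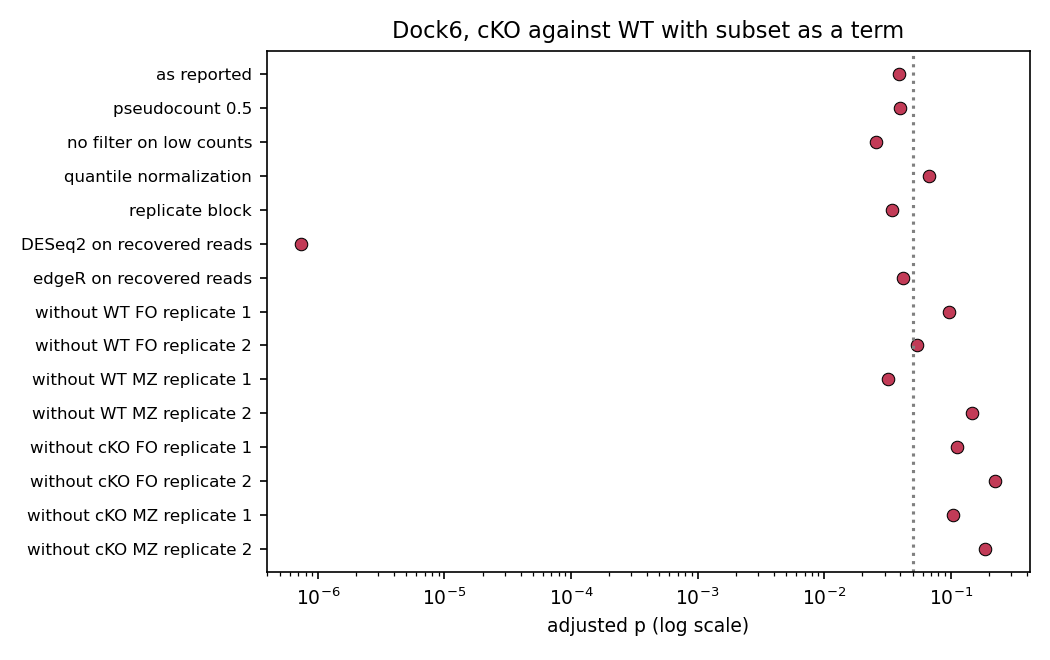
Adjusted p (log axis) of Dock6 for cKO against WT with subset as a term, as reported and under 14 alternatives, with a dotted line at 0.05. The DESeq2 value is 7.43e-07, and without 1 library the limma values run from 0.0317 to 0.224, under 0.05 only without WT MZ replicate 1.

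Markers of other cells are given beside Dock6 because bulk libraries can hold a few other cells, and because fewer cells of a type and less RNA per cell cannot be told apart. The 10 granulocyte markers summed to between 23.8 and 89.8 normalized counts in WT FO, cKO FO and WT MZ libraries, to 109 in cKO MZ replicate 2 and to 1968 in cKO MZ replicate 1. Dock6 was at 569 in cKO MZ replicate 1 and at 618 in replicate 2. The stromal and endothelial markers were summed without Pecam1, which B cells also express. They reached 49.9 to 64.7 in WT FO, 60.5 to 69.5 in cKO FO and 82.8 to 153 in WT MZ libraries. In cKO MZ they summed to 120 in replicate 1 and 303 in replicate 2. Kdr, Tek, Pdgfra and Pdgfrb were under 10 normalized counts in every library. Among the tested markers of this list, MZ means in WT and cKO were 83.2 and 80.6 for Cdh5 and 2.77 and 55.7 for Col1a1. They were 7.81 and 17.2 for Eng and 6.03 and 7.51 for Vwf. The Col1a1 mean of cKO MZ rests on replicate 2 alone, since Col1a1 was at 0 in replicate 1. The FO means in WT and cKO were 18.6 and 19.6 for Cdh5 and 0.951 and 0 for Col1a1. For Eng they were 10.2 and 20.8, and for Vwf 19.5 and 17.9. The 12 macrophage and dendritic cell markers summed to 522 to 889 in WT FO, 657 to 915 in cKO FO and 574 to 1382 in WT MZ libraries. In cKO MZ these markers summed to 1566 in replicate 1 and 1186 in replicate 2. T cell markers other than Lck summed to no more than 86.0 in any library. By limma none of these lists had a member called between the genotypes, while in MZ B cells DESeq2 called 3 granulocyte markers (Ltf, Mpo and Prtn3) and 1 dendritic cell marker (Flt3). What these cells add to the Dock6 values was not tested.

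On chromosome 9, 32 tested genes lay within 500 kb of Dock6. None was called between cKO and WT over both subsets by limma, where 19 of all 14761 tested genes were called higher and 3 lower in cKO. With so few calls, a count of 0 says little about this region. The median log2 difference of the 32 genes was 0.00 (0.00359), with a range from -0.74 to 0.80. The genes inside the Dock6 span, Angptl8 and Mir7083, share no exon bases with it, and Angptl8 had a mean of 1.03 normalized counts.

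Whether the response of Dock6 differed between the subsets was tested as the interaction of genotype and subset, which was 0.36 on the log2 scale (SE 0.218, unadjusted p = 0.143, limma adjusted p = 1.00). The interactions of the other 6 tested members ranged from -0.45 (Dock5) to 0.03 (Dock8), each with a limma adjusted p of 1.00. Over all genes 0% were called, with 94 genes at an unadjusted p under 0.05 and 0 called by edgeR or DESeq2. A difference between the subsets in the cKO change of any member was therefore not detected with these libraries, and the size that could be detected was not tested.

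**Figure D5:**
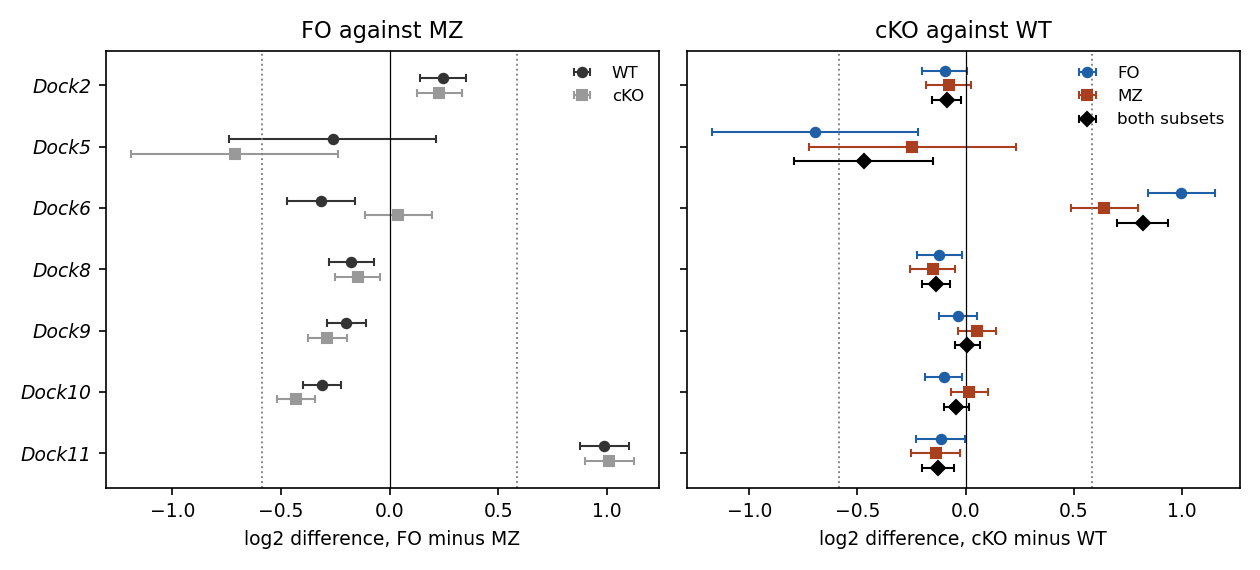
Log2 differences of the 7 tested members with bars of 1 SE from limma, FO minus MZ in WT and cKO (left) and cKO minus WT in FO, in MZ and in both subsets (right), with dotted lines at 1.5-fold. The called members are Dock11 on the left and Dock6 in both subsets on the right, while Dock5, also beyond 1.5-fold in cKO on the left and in FO on the right, has the widest bars.

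No member other than Dock6 was called between the genotypes. Dock11 differed, cKO minus WT, by -0.11 in FO (SE 0.113, limma adjusted p = 1.00) and by -0.14 in MZ B cells (limma adjusted p = 0.998). Both cKO MZ values of Dock11 (3425 and 3439.6) lay just under both WT MZ values (3485 and 4093). The groups were separated in the same direction for Dock8 in MZ and for Dock9 and Dock10 in FO B cells. The share of all tested genes with every cKO library under every WT library was not counted. Dock11 is on X, and genotype and sex-linked transcripts cannot be told apart in these groups. Dock2 differed by -0.10 in FO and -0.08 in MZ, Dock8 by -0.12 and -0.15, Dock9 by -0.04 and 0.05, and Dock10 by -0.10 and 0.02, with SEs between 0.0865 and 0.104. Dock5 differed by -0.70 in FO and -0.25 in MZ with an SE of 0.476. Dock1 was at 0 reads in both cKO FO libraries and at between 2 and 7 reads in each of the other libraries, where a count of 0 still allows 3 reads per library.

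Dock4 and Dock3, which are outside the listed members, were scarce in B cells. Dock4 had 8.67 to 24.7 normalized counts and was called in no comparison. Dock3, best known in neurons, had 0 to 14.4 and was not tested for its low mean of 4.97.

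The genes around the DOCK proteins in the pathway were taken from lists set by function. Of 14 partners and scaffolds, 13 were tested and 0 were called between FO and MZ B cells by limma, edgeR or DESeq2 in either genotype. At an unadjusted limma p under 0.05 there were 4 in WT and 6 in cKO, against 4469 and 4933 of the 14761 tested genes. Their median difference, FO minus MZ, was 0.24 in WT and 0.26 in cKO on the log2 scale. Stk4, a kinase that acts on Mob1, the adaptor of Dock8, passed the adjusted p in both genotypes below 1.5-fold (log2 difference 0.43 and 0.48, limma adjusted p = 0.00932 and 0.00540). Elmo1, which binds Dock2, had mean normalized counts of 3118 (FO) and 2500 (MZ) in WT, a log2 difference of 0.32 (limma adjusted p = 0.0678), and differed by 0.37 in cKO (limma adjusted p = 0.0360). Crkl, an adaptor of the Crk family, had log2 differences of 0.23 and 0.39 in WT and cKO (limma adjusted p = 0.203 and 0.0423). Elmo1 and Crkl thus passed the adjusted p in cKO, also below 1.5-fold. Whatever the fold, 1 of the 13 tested partners passed it in WT and 3 in cKO, against 16.9% and 19.6% of all tested genes. The other Elmo adaptors ran the other way and did not pass. In WT and cKO, Elmo2 differed by -0.22 and -0.27, and Elmo3 by -0.22 and -0.12. Wipf1 (WIP), through which Dock8 meets WASP, differed by 0.40 in WT and 0.33 in cKO (limma adjusted p = 0.121 and 0.171).

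The share of all tested genes called was 4.62% for FO and 7.41% for MZ B cells in WT, and 5.54% and 8.18% in cKO. Among 14 tested small GTPases of the family that holds Rac and Cdc42, 1 was called for FO and 2 for MZ B cells in WT, and 2 and 2 in cKO, with 1 and 2 in common. Rhoh, an atypical GTPase of blood cells, was the one called for FO in both, with means of 4728 in FO and 2216 in MZ of WT (log2 difference 1.09, limma adjusted p = 0.000544). Rnd3 and Rhobtb1, both low, were higher in MZ B cells. The direct substrates of DOCK proteins were not called. Rac2, the haematopoietic Rac, had means of 18699 and 20499 in WT FO and MZ (log2 difference -0.14, limma adjusted p = 0.429), Rac1 differed by 0.12 (limma adjusted p = 0.534), and Cdc42 by 0.43 in WT and 0.45 in cKO (limma adjusted p = 0.0195 and 0.0150), which is under 1.5-fold.

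Of 26 tested effectors of Rac and Cdc42, 3 were called for FO and 2 for MZ B cells in WT, and 7 and 1 in cKO, with 3 and 1 in common. The shares of all tested genes were 4.62% and 7.41% in WT, and 5.54% and 8.18% in cKO. Cdc42bpb, a Cdc42-binding kinase that acts on myosin, differed by -3.34 on the log2 scale, FO minus MZ, in WT, at 141 against 1434 normalized counts (limma adjusted p = 0.000174). Baiap2, an adaptor that bends membranes at filopodia, was higher in FO, at 581 against 256 (limma adjusted p = 0.00529), as were the Cdc42-binding proteins Cdc42ep3 and Cdc42se1.

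The Dbl family, the other large group of exchange factors for these GTPases, had 3 of 29 tested members called for FO and 4 for MZ B cells in WT, and 3 and 3 in cKO, with 3 and 2 in common. Beside this list and the next, the shares of all tested genes were 4.62% and 7.41% in WT, and 5.54% and 8.18% in cKO. Arhgef18 stood at 12799 against 4226 normalized counts in WT FO and MZ (log2 difference 1.61, limma adjusted p = 0.000496) and Arhgef3 at 7979 against 2685 (log2 difference 1.59, limma adjusted p = 0.00156). Plekhg3 and Arhgef12 were higher in MZ B cells. Of 22 tested GTPase inhibitors (GTPase activating proteins, GDP dissociation inhibitors and the Rac inhibitor of the Cyrib family), 2 were called for FO and 5 for MZ B cells in WT, and the same genes in cKO. Srgap3 had the largest difference, at 30.4 against 712 in WT, followed by Chn2 and by Abr, a GTPase activating protein for Rac, at 1098 against 3340.3. The median log2 difference, FO minus MZ, was 0.04 in WT and 0.08 in cKO for the GTPases, 0.15 and 0.27 for the effectors, 0.03 and 0.08 for the Dbl family and -0.05 and 0.11 for the inhibitors, beside 0.00 for all tested genes. Between cKO and WT none of the tested genes in these 5 lists was called by limma or edgeR in either subset. Between 0 and 5 per list had an unadjusted limma p under 0.05, against 382 (FO) and 596 (MZ) of the 14761 tested genes. DESeq2 likewise called none in either subset, and it called 1, Srgap3, over both subsets.

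Other genes followed the pattern of Dock11 closely. Among 10178 genes with a mean of at least 100 normalized counts, those nearest to it over the 8 libraries, by the root mean square difference of centred log2 values, were Ppp3ca (0.0602), Lasp1 (0.0710) and Treml2 (0.0728), on chromosomes 3, 11 and 17. Ppp3ca, a catalytic subunit of calcineurin, had means of 7182, 3765, 6943 and 3450.4 normalized counts in the groups WT FO, WT MZ, cKO FO and cKO MZ, against 7504, 3789, 6927 and 3433 for Dock11. The nearest genes to Dock6, looked up after its values were seen, were farther away. Ccdc124 differed from it by 0.192, Sdhaf1 by 0.207 and Ttll12 by 0.236, and Ccdc124 had means of 776, 719.7, 1478 and 1182 in the same order of groups. Such likeness was read over 8 libraries that share their size factors, and it describes levels only.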

How the data were processed

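Total RNA of sorted FO and MZ B cells was depleted of ribosomal RNA and sequenced as single-end reads. Per the paper and the processing notes, the authors aligned the reads to mm10 with HISAT2, counted them on genes with featureCounts and htseq-count, and used DESeq2. Whether counting used strand is not given in the sources used here. The authors deposited this signal as normalized counts, reads divided by the size factor of each library, and 100% of values came out as whole reads (within 0.01 of a read).

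Log2(normalized count + 1) of the 14761 genes with a mean of at least 10 entered 1 linear model of 8 libraries (R 4.3.3, limma 3.58.1, lmFit and eBayes with trend), with Benjamini-Hochberg adjustment over all of them, so that each adjusted p is limma's unless edgeR or DESeq2 is named. The pseudocount makes the fold changes of low genes smaller. A call needed 1.5-fold and an adjusted p no greater than 0.05. Alternatives were a pseudocount of 0.5, no filter, quantile normalization, a fit of just the 4 libraries of a comparison, a replicate block, edgeR 4.0.16 and DESeq2 1.42.0 on recovered reads, no fold cutoff, and each library left out. The tests were tried on simulated data. Coordinates and exon lengths are from GENCODE M21 (GRCm38), where 27872 of 27928 identifiers were found. Dock9 carries a later identifier version in the table than in that release. The members, lists and tests were chosen with earlier results of these data known. The named genes are the members, Dock3, Dock4, checks of the labels, up to 4 genes per list called between FO and MZ in both genotypes with the largest difference, and the 3 genes most like each member called in both. Stk4, Elmo1, Elmo2, Elmo3, Crkl, Wipf1, Rac1, Rac2, Cdc42 and the genes like Dock6 were chosen after their values were seen. Some results that the rule would name are not reported here. The 8 ATAC-seq samples were not analysed here.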

Additional observations from a re-analysis of the deposited data

How the results depend on the processing

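Of 616 log2 differences of the 7 tested members over the 6 comparisons and the alternatives, the fold cutoff apart, 582 kept their direction and their side of the threshold, 25 changed sign, 8 fell below the threshold and 1 passed it. Dock11 was called between FO and MZ B cells in both genotypes in every alternative. With no fold cutoff 2 members were called between the subsets in WT and 2 in cKO, Dock10 besides Dock11. With no filter on low counts 2 were called in cKO, Dock1 besides Dock11, where Dock1 had 0 reads in both cKO FO libraries. DESeq2 called 1 member, Dock6, between cKO and WT in FO B cells. Over both subsets quantile normalization left 0 members called, and leaving out 1 library gave between 0 and 1, and 1 only without WT MZ replicate 1. The cause was not tested.

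Each change of sign was in a comparison in which that member was not called. Quantile normalization turned the interaction of Dock11 to -0.039, and leaving out 1 library gave a range from -0.093 to 0.139. It turned that of Dock8 to -0.0082, with a range from -0.065 to 0.127 when 1 library was left out, and the same gave ranges from -0.121 to 0.086 for the interaction of Dock2 and from -0.94 to 0.037 for that of Dock5. Leaving out 1 library gave ranges from -0.75 to 0.23 for Dock5 and, in cKO, from -0.019 to 0.099 for Dock6 in the difference between FO and MZ B cells. In cKO against WT it gave -0.199 to 0.0081 for Dock2 in FO B cells, and in MZ B cells -0.586 to 0.095 for Dock5, -0.034 to 0.138 for Dock9 and -0.036 to 0.070 for Dock10. Dock9 ranged from -0.035 to 0.034 over both subsets.

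The replicate numbers are not stated to mark a shared mouse or day. Deviations of equal numbers correlated at 0.591 between WT FO and WT MZ and at -0.00151 between cKO FO and cKO MZ. Across genotypes the values were 0.294 between WT FO and cKO FO and 0.161 between WT MZ and cKO FO. They were -0.172 between WT FO and cKO MZ and -0.296 between WT MZ and cKO MZ. Within a genotype, equal numbers thus went together in WT but not in cKO, and they were not taken to pair the samples. The replicate block sets 1 shift over both genotypes, so pairing within WT alone was not tested. With the replicate block the count of called members stayed at 1, 1, 0, 0, 1 and 0 in the 6 comparisons, and the limma adjusted p of Dock6 over both subsets was 0.0346.

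Depth limits Dock1, Dock5 and Dock3, and the 2 libraries per group limit the rest.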
